A study of Homo sapiens with 12 samples.

Results

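The genes described here are 10 components of the DNA damage checkpoint, chosen by symbol: ATM, ATR, CHEK1, CHEK2, TP53BP1, RIF1, WEE1, TOPBP1, CLSPN and CDC25A. They were chosen with earlier results of these data known, so their counts beside the shares of all genes are descriptions. All 10 were found by Ensembl identifier among the 60651 genes of the count table, and all 10 passed the filter on low counts in every comparison. RNA was sequenced from 2 established human cholangiocarcinoma lines, both labelled WT, after 72 h of treatment, with 2 libraries in each of 6 arms. EGI-1 cells received vehicle, 0.5 µM decitabine, 200 nM talazoparib or the combination of both agents. HUCCT1 cells received vehicle or 1 µM decitabine, and the vehicle of both lines was DMSO. Decitabine is a cytidine analogue that enters replicating DNA and traps DNA methyltransferases, and talazoparib is an inhibitor of the poly(ADP-ribose) polymerases PARP1 and PARP2 that traps them on DNA. The labels do not say whether the libraries of an arm came from separate cultures, so p-values measure the spread between these libraries.

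The checkpoint delays cell division while DNA is damaged or incompletely copied. ATM is recruited to double-strand breaks and passes the signal to CHK2, whereas ATR is recruited to single-stranded DNA coated with RPA, is switched on by TOPBP1 and passes the signal to CHK1 with the help of the adaptor claspin. 53BP1 and its partner RIF1 hold back the trimming of broken ends. The signal converges on the cyclin-dependent kinases: WEE1 places an inhibitory phosphate on them, CDC25A removes it, and active CHK1 marks CDC25A for destruction. Much of this regulation acts on proteins, and the values here are those of transcripts.

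Total counts were 23139065 to 33181930 per library in EGI-1 and 32519985 to 34965627 in HUCCT1, and the member counts lay between 171 (CHEK2, HUCCT1 decitabine) and 9495 (RIF1, EGI-1 talazoparib). The 5 biliary epithelial markers summed to 8079 to 8883 CPM (library-scaled counts, with TMM factors, per 1000000) in EGI-1 and 7730.1 to 14307 CPM in HUCCT1. The 4 leukocyte markers summed to at most 23.6 CPM and the 3 hepatocyte markers to at most 0.210 CPM in any library. The EGI-1 and HUCCT1 libraries carry different sequencing lane names, so the line and the lane cannot be told apart.

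Promoter sequence was available from the RefSeq promoter table of GRCh38.p14 for 9 of the 10 genes, in 12 windows of 300 bases each. WEE1 is not in it. A match to any of the E2F motifs TTTCCCGC, TTTCGCGC, TTTGCCGC or TTTGGCGC, searched on both strands, was found in 3 of the 9 genes, against 3.31% of 35116 promoters of the same length. CCAAT was found in 7 of the 9 genes (34.6% of all promoters) and TTTGAA in 2 (15.2% of all promoters). A gene counted when any of its windows matched, and ATM and CHEK1 each have multiple windows. The shares over all promoters are of single windows, so the counts and shares are not like for like. The member windows held 12 to 34 CpG dinucleotides, where the quartiles of all promoters were 4 and 28. All 3 windows with an E2F match are shown. Of their genes TOPBP1 and CLSPN fell in decitabine-treated HUCCT1 cells and CDC25A did not. ATR, CHEK1, CHEK2 and RIF1 fell there too, without a match in their windows. Each printed window runs from 100 bases before to 20 bases after the annotated start on the minus strand, with the matching letters in capitals.
TOPBP1, chr3:133661922-133662041: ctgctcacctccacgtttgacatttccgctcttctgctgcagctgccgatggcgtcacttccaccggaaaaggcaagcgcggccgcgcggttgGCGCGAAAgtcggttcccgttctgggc
CLSPN, chr1:35769959-35770078: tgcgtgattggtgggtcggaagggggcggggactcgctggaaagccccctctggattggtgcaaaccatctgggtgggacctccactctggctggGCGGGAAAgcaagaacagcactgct
CDC25A, chr3:48188398-48188517: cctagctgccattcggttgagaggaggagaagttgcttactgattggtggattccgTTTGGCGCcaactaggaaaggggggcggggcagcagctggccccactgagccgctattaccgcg
The match began 7 bases before the start in TOPBP1, 5 before it in CLSPN and 44 before it in CDC25A. A match is a description of the letters and not evidence of binding.

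In vehicle-treated EGI-1 cells WEE1 had the highest level per length of the 10 genes, with a mean of 47.9 CPM per kilobase of its MANE transcript. TOPBP1 followed at 20.6, CHEK1 at 19.7 and RIF1 at 18.8 CPM per kilobase. ATM, ATR and CDC25A lay close together at 11.6, 10.9 and 10.8 CPM per kilobase, and of all neighbours in the order only ATR and CDC25A overlapped between libraries. CHEK2 (9.17), CLSPN (7.52) and TP53BP1 (5.09 CPM per kilobase) had the lowest levels. In vehicle-treated HUCCT1 cells TOPBP1 led with 25.8 CPM per kilobase, and its libraries overlapped those of WEE1 at 23. CHEK1 (16.5), CDC25A (15.6), ATR (14.1) and RIF1 (11.7 CPM per kilobase) formed a run in which each neighbour overlapped the next. ATM (9.08), CLSPN (7.26), TP53BP1 (6.27) and CHEK2 (4.41 CPM per kilobase) followed without overlap. In the EGI-1 combination arm WEE1 still led, at 29.3 CPM per kilobase, and CDC25A had moved above ATM, at 13.9 against 12. In decitabine-treated HUCCT1 cells WEE1 was at 13.2 CPM per kilobase, below TOPBP1 (19.6) and CDC25A (16.4) and overlapping CHEK1 (13.0). All of these orders depend on the length used. The joined exons of WEE1 hold 9251 bases against 3588 in its MANE transcript, those of TOPBP1 7337 against 5761. For ATM the lengths are 39184 and 12915 bases, and for CLSPN 9591 and 8512. Which transcripts gave the reads is not known, and the order by joined exons was not computed.

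**Figure D1:**
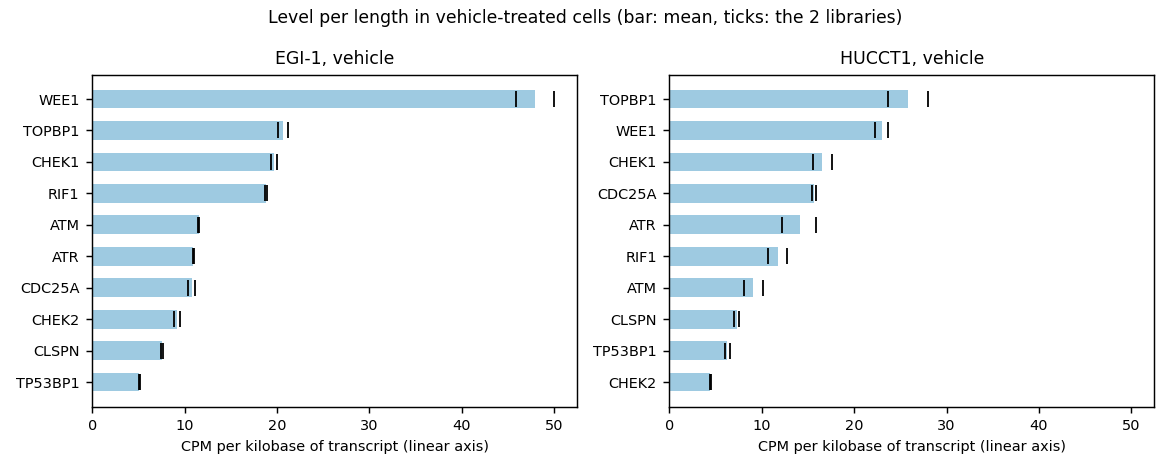
Level of the 10 genes in vehicle-treated EGI-1 and HUCCT1 cells, in CPM per kilobase of the MANE transcript on a linear axis from 0. Bars are the mean of 2 libraries and ticks the libraries, and WEE1 stands apart at 47.9 in EGI-1 but overlaps TOPBP1 in HUCCT1. The TMM factors were set within each line, so a gene's bars should not be compared between the panels.

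Genes were compared by the quasi-likelihood test of edgeR, p-values were adjusted by the Benjamini-Hochberg procedure over every gene tested, and a gene passed when its adjusted p was under 0.05. Between the vehicle arms 7 of the 10 genes differed, where 55.8% of 25096 genes did (28.5% higher in HUCCT1 and 27.3% lower). CDC25A was higher in HUCCT1 (log2 fold change 0.76, SE 0.0892), as were ATR (0.59, SE 0.0982), TOPBP1 (0.55, SE 0.0962) and TP53BP1 (0.52, SE 0.0835). WEE1 (−0.84, SE 0.0789), CHEK2 (−0.83, SE 0.128) and RIF1 (−0.47, SE 0.0927) were lower in HUCCT1. Their adjusted p-values ran from 8.0e-09 for WEE1 to 2.0e-04 for RIF1. CHEK1, ATM and CLSPN did not pass, with log2 fold changes of −0.03, −0.13 and 0.17. This contrast depends on scaling: with library totals alone the median over all genes moved from −0.01 to −0.27, and ATM (−0.39) and CHEK1 (−0.30) passed as well.

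The first question was whether either agent, or the combination, changed the transcripts of the checkpoint in EGI-1 cells. WEE1, the kinase that restrains the cyclin-dependent kinases, fell under talazoparib and further below vehicle under the combination, while CDC25A, the phosphatase that opposes it, rose under the combination. CHEK1 was the only other member to change, and it fell under the combination. The sensor kinases ATM and ATR, the ATR activator TOPBP1, the adaptor CLSPN, the effector kinase CHEK2 and the end-protection factors TP53BP1 and RIF1 did not pass the test in any EGI-1 comparison.

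WEE1 (ENSG00000166483.12, plus strand of chr11:9573670-9593457 in GRCh38) had 165 and 179 CPM in the 2 vehicle libraries, 146 and 155 under decitabine, 128 and 123 under talazoparib, and 108 and 103 under the combination. The 4 arms did not overlap, and every library of an arm lay below all libraries of the arm before it. In 31.8% of all genes both combination libraries lay below both vehicle libraries. The share with this order of 4 arms is not given here. Against vehicle WEE1 fell by 38.9% under the combination (log2 fold change −0.71, SE 0.0651, adjusted p = 6.1e-07) and fell by 27.1% under talazoparib (−0.46, SE 0.0646, adjusted p = 4.1e-04). Decitabine alone gave −0.19 (SE 0.0643), which did not pass (adjusted p = 0.276). The combination was also lower than decitabine alone (−0.52, SE 0.0651, adjusted p = 6.3e-05), but against talazoparib alone the difference of −0.25 (SE 0.0653) missed the threshold (adjusted p = 0.0558). It passed there with DESeq2 (adjusted p = 0.0406). The combination differed from the sum of the single effects by −0.06 (95% interval −0.26 to 0.13).

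CDC25A (ENSG00000164045.12, minus strand of chr3:48157146-48188417) had 40.0 and 42.7 CPM under vehicle, 38.2 and 43.7 under decitabine, 47.9 and 49.2 under talazoparib, and 53.7 and 53.4 under the combination. The combination libraries lay above all other EGI-1 libraries, and the talazoparib libraries above all of vehicle and decitabine. The share of all genes with such an order is not given here. The rise under the combination was 29.6% against vehicle (log2 fold change 0.37, SE 0.0796, adjusted p = 0.00285) and 0.39 on the log2 scale against decitabine (SE 0.0797, adjusted p = 0.00512). Talazoparib alone gave 0.23 (SE 0.0797, adjusted p = 0.127). Without vehicle replicate 1 the combination value was 0.32 and no longer passed (adjusted p = 0.0816). In a fit restricted to the 2 arms, talazoparib alone passed (0.23, adjusted p = 0.0357).

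CHEK1 (ENSG00000149554.13, plus strand of chr11:125625163-125676255) had 82.6 and 79.9 CPM under vehicle, 87.1 and 76.1 under decitabine, 66.9 and 75.4 under talazoparib, and 63.8 and 68 under the combination. The combination and talazoparib arms overlapped each other, and both lay below vehicle and decitabine. For the combination against vehicle, 31.8% of all genes were likewise apart and lower. Against vehicle CHEK1 fell by 18.9% under the combination (log2 fold change −0.30, SE 0.0793, adjusted p = 0.0125), and the combination was also lower than decitabine (−0.31, SE 0.0793, adjusted p = 0.0226). Talazoparib alone gave −0.19 (adjusted p = 0.232). The call against vehicle was lost in 3 of 4 fits that left out 1 library, without vehicle replicate 1 (adjusted p = 0.123), vehicle replicate 2 (0.076) or combination replicate 1 (0.104). The call against decitabine was likewise lost in 3 of 4 such fits. CHEK1 shares 751 exon bases with a lncRNA on the opposite strand and 53 with STT3A on its own, and the strand setting of the counting is not stated. Of the other members TP53BP1 shares the most exon bases with a protein-coding gene on the opposite strand, 3732 with TUBGCP4, followed by RIF1 (318 with NEB), CHEK2 (293 with HSCB) and ATM (124 with C11orf65). ATR shares 2048 exon bases with the pseudogene EIF2AK1P1 on the opposite strand and 497 with a lncRNA on its own strand.

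**Figure D2:**
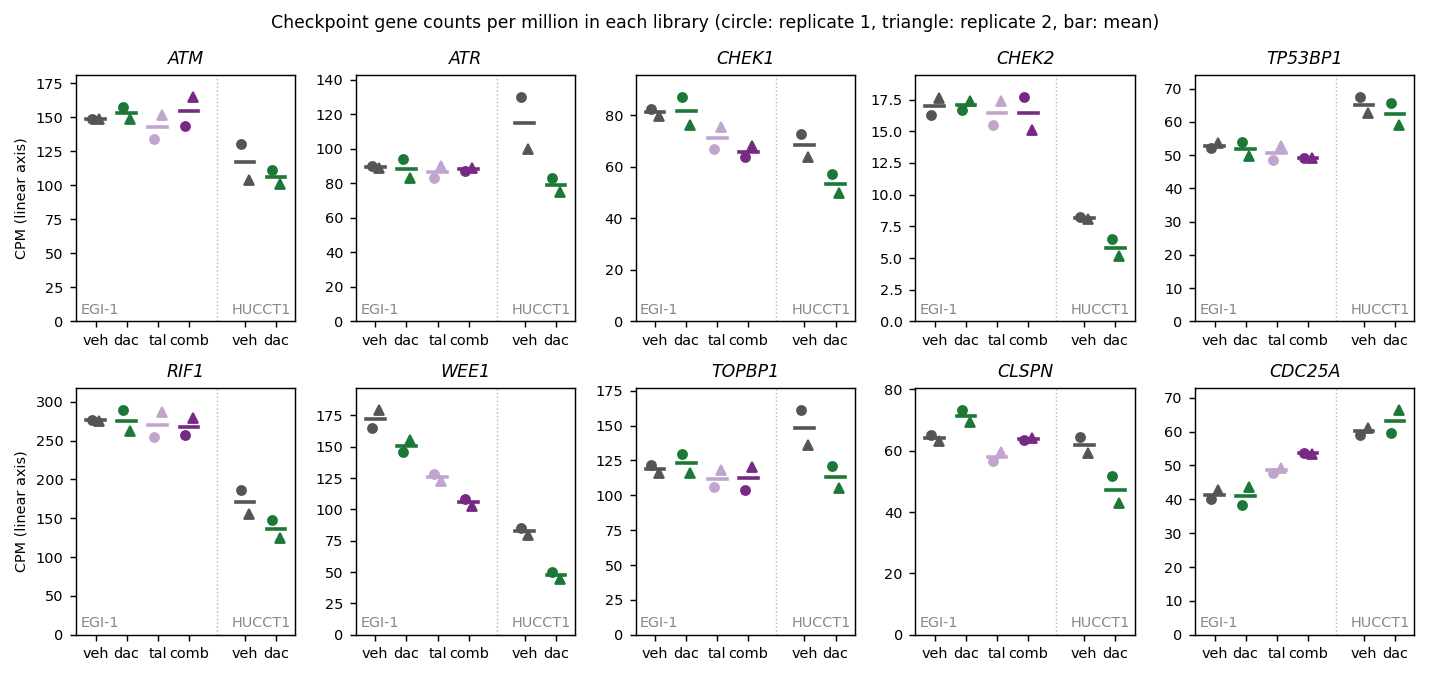
CPM of each of the 10 genes in every library on linear axes from 0, with a circle for replicate 1, a triangle for replicate 2 and a bar for the mean (veh, vehicle; dac, decitabine; tal, talazoparib; comb, combination). WEE1 steps down from 165 and 179 to 108 and 103 CPM across the EGI-1 arms while CDC25A ends above its other arms, and in HUCCT1 most genes are lower under decitabine.

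Counted over the set, decitabine alone changed 0 of 10 members in EGI-1 (2 at an unadjusted p under 0.05, WEE1 and CLSPN, and 0 with DESeq2), where 0.544% of 22406 genes passed. Talazoparib changed 1 of 10, against 4.12% of all genes (1.29% lower). The combination changed 3 of 10, 1 higher and 2 lower, against 18.7% of all genes (11.1% higher and 7.61% lower). Against decitabine alone the combination changed the same 3 genes, with 7.68% of all genes passing. Against talazoparib alone it changed 0 of 10 (1 at an unadjusted p under 0.05, WEE1, which passed with DESeq2), with 1.92% of all genes passing. Beyond the sum of the single effects there was 0 of 10 in edgeR, 0 at an unadjusted p under 0.05 and 0 in DESeq2, with 0.161% of all genes. The median log2 fold change of the members was −0.04 under the combination, against −0.02 over all genes. The members ranged from −0.19 to 0.15 under decitabine, −0.46 to 0.23 under talazoparib and −0.71 to 0.37 under the combination. The combination ranged from −0.52 to 0.39 against decitabine, −0.25 to 0.14 against talazoparib and −0.12 to 0.15 beyond the sum. All of these EGI-1 comparisons share libraries with one another.

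The intervals of the members that did not pass show how large a change these libraries allow. Under the combination ATM had 144 and 165 CPM against 149 and 149 under vehicle, and its 95% interval on the log2 scale ran from −0.10 to 0.21. ATR had 87.0 and 89.0 CPM against 89.7 and 88.7, with an interval of −0.17 to 0.13. CLSPN had 63.5 and 64.3 CPM against 65.0 and 63.1, with an interval of −0.15 to 0.14. All 3 overlapped between the arms. RIF1 (257 and 279 against 277 and 275 CPM) and TOPBP1 (104 and 120.3 against 122 and 116 CPM) overlapped as well. TP53BP1 had 49.1 CPM in both combination libraries against 52.1 and 53.6 under vehicle, with both libraries below vehicle, as in 31.8% of all genes, but not past the test (log2 fold change −0.11, adjusted p = 0.363). CHEK2, the least abundant member by count, had the widest interval, −0.28 to 0.18.

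In HUCCT1 cells, which received decitabine at 1 µM, most members fell. Of the 10 members 7 were lower than vehicle and the other 3 did not pass, where 33.5% of 22479 genes passed, 13.9% lower and 19.6% higher. Their median log2 fold change was −0.37, against 0.00 over all genes. WEE1 fell the most, and the ATR branch (ATR, TOPBP1, CLSPN and CHEK1), CHEK2 and RIF1 fell with it. ATM, TP53BP1 and CDC25A did not pass.

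WEE1 had 85.1 and 79.8 CPM under vehicle and 50.1 and 44.8 under decitabine, so that it fell by 42.5% (log2 fold change −0.80, SE 0.112, adjusted p = 3.4e-06). The arms were far apart in relation to the spread of either. ATR (minus strand of chr3:142449007-142578733), the kinase at single-stranded DNA, had 129.9 and 99.7 CPM under vehicle and 83 and 75 under decitabine (−0.54, SE 0.121, adjusted p = 0.00108). Its vehicle libraries differed from each other by more than the nearer vehicle library differed from decitabine, and without vehicle replicate 1 the value was −0.35 and just missed the threshold (adjusted p = 0.0507). TOPBP1, which switches ATR on, had 161.4 and 136.3 CPM against 121 and 105 (−0.40, SE 0.114, adjusted p = 0.00863). CLSPN, the adaptor for CHK1, had 64.5 and 59.2 CPM against 51.7 and 42.9 (−0.39, SE 0.117, adjusted p = 0.0122). CHEK1 itself had 72.7 and 63.9 CPM against 57.1 and 49.9 (−0.35, SE 0.115, adjusted p = 0.0201). All 4 genes of the ATR branch thus had both decitabine libraries below both vehicle libraries, as did 31.3% of all genes.

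CHEK2 had 8.21 and 8.06 CPM under vehicle and 6.47 and 5.15 under decitabine (log2 fold change −0.48, SE 0.172, adjusted p = 0.0318). This was the smallest count of the set, the gene has near-identical pseudogene copies to which the counting could assign reads, and with DESeq2 it did not pass (−0.49, adjusted p = 0.131). RIF1 had 186 and 156 CPM against 148 and 125 (−0.32, SE 0.116, adjusted p = 0.0335). Its partner TP53BP1 had 67.5 and 62.6 CPM against 65.6 and 59.0, overlapping arms with a log2 fold change of −0.06 (95% interval −0.29 to 0.17). ATM had 130.1 and 104 CPM against 111 and 101, also overlapping (−0.14, 95% interval −0.38 to 0.10). CDC25A had 59.1 and 61.1 CPM against 59.7 and 66.3 (0.07, 95% interval −0.16 to 0.30).

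The HUCCT1 calls other than WEE1 rested on few libraries. Without vehicle replicate 1 WEE1 was the 1 member that passed, and without decitabine replicate 2 WEE1 and ATR passed. With library totals in place of TMM factors 4 of the 7 passed, WEE1, ATR, TOPBP1 and CLSPN. In both HUCCT1 arms 9 of the 10 members were higher in replicate 1 than in replicate 2, by a median of 0.15 under vehicle and 0.18 under decitabine on the log2 scale, and the medians over all genes were −0.01 and 0.01. EGI-1 replicates differed as well: 1 of 10 was higher in replicate 1 under talazoparib (median −0.13) and 7 of 10 under decitabine (0.10). Under vehicle 5 (0.00) and under the combination 4 (−0.02) were higher in replicate 1. The part of these differences between replicates in the results was not tested.

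**Figure D3:**
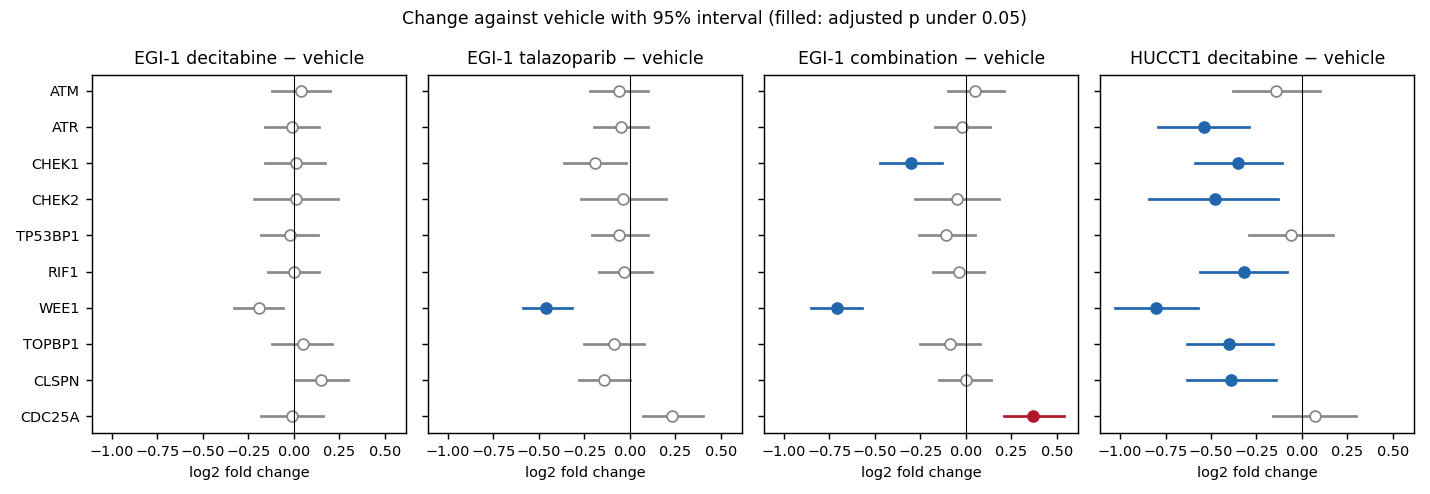
Log2 fold change against vehicle of the 10 genes in the 3 EGI-1 treatments and in decitabine-treated HUCCT1 cells, with 95% intervals. Filled points passed an adjusted p under 0.05 (blue lower, red higher), and they number 0, 1, 3 and 7 from left to right.

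The decitabine effect was then compared between the lines in 1 fit of all 12 libraries. It was lower in HUCCT1 than in EGI-1 for 4 of the 10 members and the other 6 did not pass, where 15.9% of 25096 genes passed, 7.20% lower and 8.74% higher. The members ranged from −0.59 to 0.10 on the log2 scale. WEE1 differed by −0.59 (SE 0.112, adjusted p = 7.9e-04). CLSPN differed by −0.52 (SE 0.123, adjusted p = 0.00514), with an EGI-1 change of 0.15 that did not pass in its own comparison (adjusted p = 0.487). ATR differed by −0.51 (SE 0.139, adjusted p = 0.015) and TOPBP1 by −0.43 (SE 0.136, adjusted p = 0.0366), and these calls were lost in 4 and 5 of 8 fits that left out 1 library. CHEK1 (−0.34, adjusted p = 0.0836), CHEK2 (−0.48, adjusted p = 0.0879) and RIF1 (−0.31, adjusted p = 0.126) did not pass in this fit. All 3 passed with no filter on low counts (adjusted p = 0.0168, 0.0464 and 0.0159), and CHEK1 (0.0409) and RIF1 (0.0376) passed with a replicate block, so the call for these genes depends on the setting. The doses differed, 1 µM in HUCCT1 and 0.5 µM in EGI-1, and line, dose and lane cannot be told apart.

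Lists of genes that peak in S phase or in G2 and M were measured beside the members. In EGI-1 the 42 S phase genes, the members left out, summed to 4581 and 4513 CPM under vehicle, 4539 and 4447 under decitabine, 3993 and 4147 under talazoparib, and 3833 and 3871 under the combination. In HUCCT1 the S phase sum was 3516 and 3401 CPM under vehicle and 2525 and 2496 under decitabine. Within each line the S phase sum was lowest in the arm where WEE1 was lowest, and so was the G2 and M sum given below. In HUCCT1 this rests on only 2 arms. Of the 42 S phase genes 9 were lower under talazoparib, 19 under the combination and 28 under decitabine in HUCCT1, where 1.29%, 7.61% and 13.9% of all genes were lower. The 53 G2 and M genes summed in EGI-1 to 10228 and 10047 CPM under vehicle, 9960.1 and 9389 under decitabine, 9562 and 10080.4 under talazoparib, and 9082 and 9353 under the combination, and in HUCCT1 to 9604 and 9289 under vehicle and 6932 and 6557 under decitabine. Of these 53 genes 2 were lower under decitabine in EGI-1, where 6 of all 22406 genes were lower. Under talazoparib, where WEE1 fell, 1 of the 53 was lower. Under the combination 17 were lower (2 higher), and in HUCCT1 43 were lower (1 higher). CDC25A, whose product also drives entry into S phase, was highest in EGI-1 in the combination arm, where the S phase sum and the G2 and M sum were lowest. In these bulk samples fewer cells in a phase and less RNA per cell cannot be told apart, and the part of cycle phase in the members' changes was not tested.

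**Figure D4:**
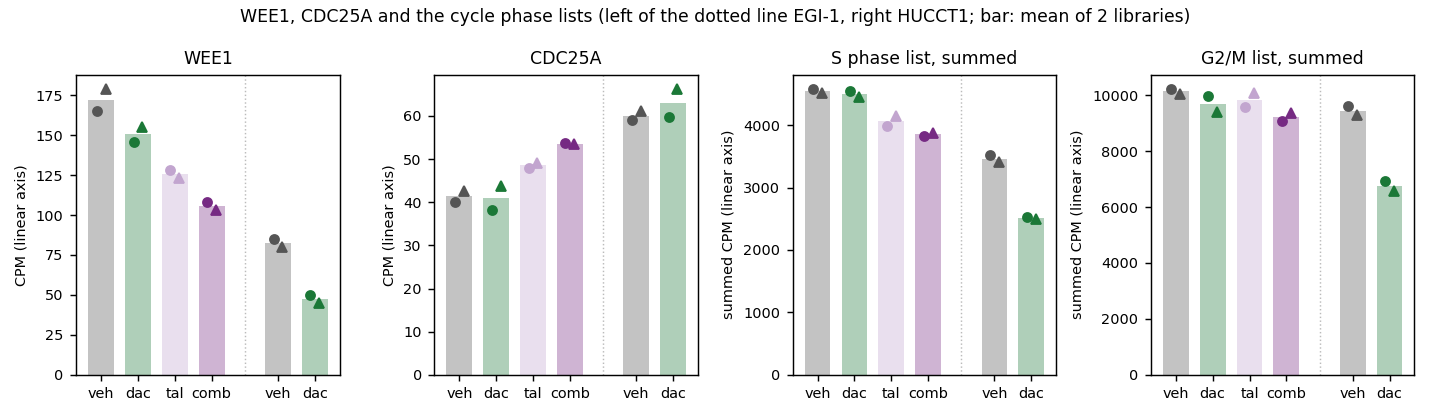
CPM of WEE1 and CDC25A and the summed CPM of the S phase and G2/M lists without the members, in every library (circle, replicate 1; triangle, replicate 2; bar, mean of 2 libraries; linear axes from 0). The S phase sum goes from 4581 and 4513 CPM under vehicle to 3833 and 3871 under the combination in EGI-1, and CDC25A is highest in that arm of the line.

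Markers of other cell types moved in HUCCT1 as well. All 3 endothelial markers rose under decitabine, as did the 3 fibroblast markers that passed the filter on low counts, of 4 listed, their sums going from 0.859 to 1.08 up to 11.2 to 12 CPM for endothelium and from 24.5 to 27.2 up to 147 to 173 CPM for fibroblasts. Of the 2 leukocyte markers that passed the filter, of 4 listed, 1 rose, and the 4 summed to 2.61 to 2.67 CPM under vehicle and 4.05 to 4.25 under decitabine. The biliary sum was 12934 to 14307 CPM under vehicle and 7730.1 to 8855 under decitabine, with 4 of 5 genes lower. The hepatocyte markers stayed at or below 0.210 CPM, with 1 of 3 at 0 in both libraries of each arm. In EGI-1 under the combination the biliary sum was 8759 to 8883 CPM against 8079 to 8083, the fibroblast sum 44.9 to 52.3 against 30.2 to 32.1, the endothelial sum 22.3 to 25.2 against 18.8 to 20.1, and the leukocyte sum 3.69 to 23.6 against 3.63 to 4.22 CPM, with 2 of 5 biliary markers and 1 marker of each of the other 3 lists higher. Over all genes 19.6% were higher and 13.9% lower in HUCCT1 under decitabine, and 11.1% higher under the combination. The part of these markers in the members' changes was not tested.

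The other genes of the pathway were counted in lists by role. Over all genes, 7.61% were lower and 11.1% higher under the combination, and 13.9% lower and 19.6% higher in HUCCT1 under decitabine. Under talazoparib 1.29% were lower. Of 12 genes of ATR activation, RAD17, which loads the checkpoint clamp, was lower under talazoparib (log2 fold change −0.84, adjusted p = 0.0316), at 6.02 and 3.69 CPM against 8.13 and 8.93. That was the 1 gene of this list to pass there, and under the combination the list lay between −0.46 and 0.12. In HUCCT1 6 of the 12 were lower, with ETAA1, another activator of ATR (−0.94), RPA3, a subunit of RPA (−0.50), and ATRIP, the partner of ATR (−0.49), changing the most.

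Of 10 genes of ATM signalling and break-side chromatin 3 were lower under the combination, KAT5, an acetyltransferase that activates ATM (−0.51), H2AX, the histone variant phosphorylated at breaks (−0.35), and NBN, a subunit of the MRN complex (−0.23). In HUCCT1 6 of 10 were lower. Over all genes 7.61% were lower under the combination and 13.9% in HUCCT1. The ubiquitin ligase partners BARD1 and BRCA1 changed there by −0.92 and −0.80, and MDC1, the reader of phosphorylated H2AX, by −1.66 at levels of only 0.211 to 0.889 CPM. BRCA1 and BARD1 did not pass under the combination, at −0.16 and −0.08. Of 7 genes of end protection, the part of the pathway in which 53BP1 and RIF1 act, 3 were lower under the combination: SHLD2, a shieldin subunit (−0.43), the nuclease DCLRE1C (−0.30) and PAXIP1 (−0.25). In HUCCT1 none of these 3 passed, and DYNLL1, a 53BP1-binding protein, was higher (0.46). Of 6 chaperones and DNA-PK genes 1 changed in HUCCT1, where 33.5% of all genes did. It was XRCC5, which encodes a Ku subunit (−0.36), and under the combination in EGI-1 the list lay between −0.15 and 0.21.

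Of 12 cyclins, kinases and switches downstream 2 were higher and 2 lower under the combination in EGI-1, where 11.1% and 7.61% of all genes were. In HUCCT1 under decitabine 10 were lower (13.9% of all genes) and the other 2 did not pass, whereas under decitabine in EGI-1 the list lay between −0.21 and 0.22. The decitabine effect was lower in HUCCT1 than in EGI-1 for 6 of the 12 by the interaction term (7.20% of all genes), and the other 6 did not pass. CDK2, a target of WEE1 and CDC25A, rose under talazoparib (0.38, adjusted p = 0.00186) and the combination (0.63, adjusted p = 2.2e-06), at 98 and 103 CPM against 65.0 and 64.6, and its partner CCNE1 rose under the combination (0.41). PLK1, a mitotic kinase that promotes loss of WEE1 and claspin, was lower under the combination (−0.29) and in HUCCT1 (−0.64), where CDC25C (−0.75) and CCNB2 (−0.66) changed more. CDK2 fell in HUCCT1 (−0.34, adjusted p = 0.0189).

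The CDK inhibitor CDKN1A rose under decitabine in EGI-1 (0.44, adjusted p = 0.00896), under talazoparib (0.39), under the combination (1.09, adjusted p = 2.2e-08) and in HUCCT1 (0.64). MDM4 fell under talazoparib (−0.38), under the combination (−0.78) and in HUCCT1 (−0.45), and GADD45A, a stress-induced growth arrest gene, rose under the combination (0.40). Of 7 genes for the destruction of checkpoint proteins 2 were higher under the combination and 2 in HUCCT1, and the others did not pass. Over all genes 11.1% and 19.6% were higher. FBXO6, an F-box protein that directs CHK1 to degradation, had 2.53 and 2.84 CPM under vehicle and 5.49 and 5.44 under the combination (1.03, adjusted p = 8.3e-04), and 2.67 in both HUCCT1 vehicle libraries against 10.1 and 9.46 under decitabine (1.87, adjusted p = 8.4e-09). FBXW11 (0.25) under the combination and BTRC (0.32) in HUCCT1, which both encode F-box proteins that recognise phosphorylated CDC25A and WEE1, were the others.

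The genes whose pattern over the 12 libraries was most like that of a member were found by Pearson's r of log2 CPM centred within each line, over 13024 genes. This is a description, since the libraries share arms, the treatment moves many genes together, and differences between replicates enter r as well. WEE1 was followed most closely by ALDH1A3-AS1, MCM7 and MCM3 (r = 0.98 each), the last 2 being subunits of the replicative helicase. CHEK1 was closest to SMC3, NIPBL and BBX (0.99 each), of which SMC3 is a cohesin subunit and NIPBL its loader, and TOPBP1 to STAG2 and MRE11 (0.99), a cohesin subunit and the MRN nuclease. RIF1 was closest to CSE1L, ASCC3 and TAOK1 (0.99), and ATR to FRYL, DDHD2 and PHKB (0.98). CLSPN was closest to ASTE1 (0.96), CHEK2 to ZNF700 (0.95) and CDC25A to NPDC1 (0.96). Among the members RIF1 and TOPBP1 were the most alike (0.96), and CDC25A had a negative r with each of the other 9, down to −0.79 with CHEK1.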

How the data were processed

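RNA sequencing of 12 libraries was analysed from 1 table of raw counts per gene that the authors deposited, with no normalization. The study's methods, which cover EGI-1 alone, name fastp, STAR, RSEM and GRCh38 with a stranded total RNA kit and ribosomal depletion, whereas the submitters' processing notes list fastp, Trim Galore, HISAT2, featureCounts and GRCh38. The labels name Trizol and the methods a column kit. The strand setting of the counting, the annotation and the treatment of reads matching several genes are not given in the sources used here, so reads of overlapping genes and near-identical copies may be mixed. The names of both libraries of the talazoparib arm carry 50 where labels and methods give 200 nM. Symbols, positions and MANE transcript lengths came from GENCODE 44 on GRCh38. Of 60651 identifiers 60437 were matched outside 44 pseudoautosomal copies, and 170 were not.

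A robust quasi-likelihood model of edgeR 4.0.16 (R 4.3.3) was fitted to these counts. Genes with low counts were removed by filterByExpr on the arms, libraries were scaled by TMM, and p-values were adjusted by Benjamini-Hochberg over all genes of each comparison. The 8 EGI-1 libraries were fitted together (22406 genes), the 4 HUCCT1 libraries apart (22479 genes) and all 12 for comparisons between lines (25096 genes). Values per library are CPM with TMM factors of 0.965 to 1.03, set within each line. Between replicates the chi-square per gene was 2.56 to 11.1, above counting noise, so no 2 libraries were merged. With 2 libraries per arm an exact two-sided permutation test could not go below p = 0.333 and was not used. The scripts were tested on simulated data.

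The members and lists were chosen with earlier results of these data known. In every comparison each of the 10 members was reported singly or within the range of the members. From each pathway list, at most 3 genes per comparison were named, those with the largest change among those that passed, for the combination, talazoparib and HUCCT1 decitabine; other values of such genes were added for contrast. Alternatives were upper-quartile factors, library totals alone, no filter on low counts, DESeq2 1.42.0, only the libraries compared, a replicate block, and leaving out each library. The result of 1 pathway gene, and the counts of its list, are not reported here.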

Additional observations from a re-analysis of the deposited data

Results flagged for a closer look

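For 4 of the members the decitabine effect differed between the lines by the interaction term of the joint edgeR fit. It was lower in HUCCT1 than in EGI-1 by −0.59 on the log2 scale for WEE1 (adjusted p = 7.9e-04), −0.52 for CLSPN (0.00514), −0.51 for ATR (0.015) and −0.43 for TOPBP1 (0.0366). The dose was 1 µM in HUCCT1 and 0.5 µM in EGI-1, and the lines were sequenced in lanes of different name. When each of the 8 libraries concerned was left out in turn, the call was lost in 0 fits for WEE1 and CLSPN, 4 for ATR and 5 for TOPBP1. No arm had the 4 or more libraries needed to look for a single library far from the rest.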

How the results depend on the processing

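WEE1 passed under talazoparib, the combination and HUCCT1 decitabine in every alternative run, with −0.65 to −0.77 for the combination and −0.72 to −0.88 for HUCCT1 when 1 library was left out. A lone library left in an arm is assumed to vary like the other arms. The number of members that passed was 1 for the combination against talazoparib with upper-quartile factors, no filter, DESeq2 or only the libraries compared, 2 for talazoparib with only the libraries compared, 4 for HUCCT1 decitabine with library totals, and 7 for the difference between the lines with no filter. Leaving out 1 library gave 1 to 3 members for the combination (1 without vehicle replicate 1), 2 to 3 against decitabine, 1 to 7 for HUCCT1 decitabine (1 without vehicle replicate 1, 2 without decitabine replicate 2) and 2 to 7 for the difference between the lines. The cause was not tested.

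Values that changed sign were all near 0 and none had passed. CHEK1 under decitabine in EGI-1 was −0.02 with upper-quartile factors and −0.01 with library totals. TP53BP1 was 0.01 and 0.05 in the difference between the lines under the same settings and 0.01 in HUCCT1 with library totals. CLSPN was −0.09 between the vehicle arms with library totals, and 0.01 under the combination with DESeq2 and with only the libraries compared. Leaving out 1 library gave −0.09 to 0.09 for CHEK1 and −0.12 to 0.09 for CDC25A under decitabine in EGI-1. Under talazoparib it gave −0.16 to 0.03 for ATM, −0.11 to 0.00 for ATR, −0.13 to 0.04 for CHEK2 and −0.12 to 0.05 for RIF1. Under the combination it gave −0.05 to 0.15 for ATM, −0.16 to 0.06 for CHEK2, −0.10 to 0.02 for RIF1, −0.20 to 0.02 for TOPBP1 and −0.02 to 0.02 for CLSPN. WEE1 beyond the sum ran from −0.12 to 0.00. In HUCCT1 it gave −0.30 to 0.01 for ATM, −0.14 to 0.01 for TP53BP1 and −0.01 to 0.14 for CDC25A, in the difference between the lines −0.10 to 0.05 for TP53BP1 and −0.01 to 0.20 for CDC25A, and between the vehicle arms −0.28 to 0.02 for ATM and −0.11 to 0.05 for CHEK1.

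Over all genes the calls were 122 for decitabine in EGI-1, against 335 with no filter, 43 with only the libraries compared and 22 to 417 without 1 library. They were 923 for talazoparib (1851 with only the libraries compared). For the combination they were 4194 (5799 with only the libraries compared, 3175 with DESeq2). The numbers for talazoparib and for the combination were lower whenever 1 library was left out. Against decitabine there were 1720 (963 with only the libraries compared, 853 to 2544 without 1 library), against talazoparib 431 (897 with no filter, 700 with only the libraries compared, 111 to 440 without 1 library), beyond the sum 36 (71 with no filter, 27 to 85 without 1 library) and for the difference between the lines 4000 (2540 to 3761 without 1 library). The split of higher to lower calls moved from 2489 and 1705 to 2177 and 2244 with upper-quartile factors for the combination, and with library totals from 2193 and 1807 to 2595 and 1278 for the difference between the lines and from 7155 and 6848 to 5103 and 9375 for the vehicle arms, where the all-gene median was −0.27 and, with upper-quartile factors, −0.13.

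A replicate block by the number in the title changed the members that passed from 3 to 2 for the combination against decitabine (CHEK1, adjusted p = 0.0568) and from 4 to 6 for the difference between the lines (CHEK1 and RIF1 gained), and in the other 7 comparisons left their number as it was. Over all genes the block gave 10136 calls for HUCCT1 decitabine in place of 7525, 60 for decitabine in EGI-1 and 249 for the combination against talazoparib, and a block by the series of the library names, for EGI-1, gave 75 for decitabine and changed no number of members. Deviations of same-numbered libraries correlated from −0.26 to 0.19 between the EGI-1 arms, so these libraries were taken to share only a number. In HUCCT1 the correlation was 0.28 over a single pair of arms, and no label ties equal numbers to a shared culture or day, so whether the numbers pair these libraries cannot be told from 2 arms.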
